A study of Mus musculus with 12 samples.

Results

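The genes described here encode the nuclear pore and the machinery that carries protein and RNA through it: nucleoporins, importins, exportins, transportins and the enzymes and binding proteins of the small GTPase Ran. They were chosen by name, as every gene whose symbol begins as those of the Nup, Xpo, Ipo, Kpna, Kpnb, Tnpo and numbered Ranbp genes do, together with Ran, Rangap1, Rcc1, Tpr, Pom121, Ndc1, Seh1l, Sec13 and Rae1, a rule that uses no measured value but was set with earlier results of these data known. The array carried 61 such genes among 32524 genes, and 56 of them were among the 16915 genes tested. Liver RNA came from 6 Floxed mice, which carry loxP-flanked Phgdh alleles (Phgdh flox/flox) and no Cre, and from 6 LKO littermates (Alb+/Cre;Phgdh flox/flox), all of them male C57BL/6 mice aged 30 weeks on a casein chow. Phgdh is the first enzyme of serine synthesis from glucose, and Cre driven by the albumin promoter deletes it in hepatocytes, so that the other cell types of the liver keep the gene. Each mouse was measured on 1 single-color array, and the comparison asked which genes differed between LKO and Floxed livers.

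The nuclear pore is a ring-shaped channel through the nuclear envelope. Its scaffold is built of outer rings (the Y complex), an inner ring and a ring of membrane proteins, its channel is filled with phenylalanine-glycine repeats that transport receptors can cross, and filaments face the cytoplasm while a basket faces the nucleus. Importins bring cargo in and let it go on meeting Ran-GTP, exportins leave the nucleus bound to cargo and Ran-GTP, and the gradient of Ran-GTP is kept up by Rcc1, which loads Ran with GTP in the nucleus, and by Rangap1, which makes it hydrolyze GTP in the cytoplasm.

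Levels are given as log2 of the background-corrected spot intensity after quantile normalization over the 12 arrays, read from the brightest probe of each gene, and they compare mice for a gene and not genes with each other. Between 21614 and 24252 of 39429 probes were well above background on an array. The arrays lay on 3 slides, with Floxed 1 to 4 on slide 1, Floxed 5 and 6 and LKO 1 and 2 on slide 2, and LKO 3 to 6 on slide 3, and each slide was scanned once. Phgdh itself lay between 4.81 and 5.50 in Floxed mice and between 4.23 and 5.30 in LKO mice (log2 fold change -0.48 ± 0.18 SE, limma p = 0.0179, adjusted p = 0.451, exact permutation p = 0.0346). The arrays labelled LKO 1 and LKO 2 read 5.07 and 5.30, inside the Floxed range, whereas LKO 3 to 6 read at most 4.66. On Phgdh these 2 arrays thus go against their label. This reading rests on 1 of 2 Phgdh probes, as the other was not well above background on all 12 arrays. Where the probe lies relative to the deleted part of the gene was not analysed here, and whether the label is right was not tested; if it is not, the differences over all mice and within slide 2 are not differences between LKO and Floxed mice alone. The Phgdh difference was -0.055 within slide 2 and -0.72 without the 2 arrays. These arrays were set apart by their Phgdh values, so the latter value is no test of Phgdh. A difference seen only on LKO 3 to 6 cannot be told apart from a difference of slide 3, so for each gene called below the difference within slide 2 and the value without the arrays labelled LKO 1 and 2 are given. All 9 hepatocyte markers were well above background. Of the markers of other cells, Mcm2, Mcm5, Cel and Pecam1 had a p below the threshold, all of them higher in LKO livers (0.37, 0.42, 0.54 and 0.70). They were 2 of 8 tested proliferating, 1 of 4 acinar and 1 of 6 endothelial markers, where 8.35% of all genes were called. Differences were negative in 1 of 8 proliferating, 1 of 4 acinar, 2 of 6 endothelial, 3 of 6 stellate and 0 of 2 cholangiocyte markers. They were negative in 6 of 7 macrophage, 5 of 6 blood, 3 of 5 lymphocyte and 7 of 9 hepatocyte markers. The mean deviation of the 6 endothelial markers ran from -0.24 to 0.13 in Floxed and from -0.13 to 0.36 in LKO mice, that of 8 of 12 markers of proliferating cells from -0.30 to 0.09 and from -0.05 to 0.22, and that of 4 of 8 acinar markers from -0.35 to 0.20 and from -0.18 to 0.33; their part in the results below was not tested, and in whole liver RNA fewer cells of a type and less RNA per cell cannot be told apart.

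The promoters of 3 genes are shown because these genes had the largest rise and the 2 largest falls in the group. Each window runs from 250 bases before to 50 bases after the annotated start in RefSeq (build GRCm38.p6), at chr2:31974200-31974499 on the plus strand for Nup214, chr19:29812925-29813224 on the minus strand for Ranbp6 and chr1:135430450-135430749 on the minus strand for Ipo9. The sequences are written 5′ to 3′ along the gene. Capitals mark matches to any of 8 short motifs on either strand, namely CCAAT (the CCAAT box), GGGCGG (bound by Sp1), CACGTG (the E-box), GCATGCGC (bound by NRF1), CCGGAAG (bound by ETS factors), TATAAA, TGACGTCA (the cAMP response element) and TGATGCAA (a composite element bound by ATF4).
Nup214: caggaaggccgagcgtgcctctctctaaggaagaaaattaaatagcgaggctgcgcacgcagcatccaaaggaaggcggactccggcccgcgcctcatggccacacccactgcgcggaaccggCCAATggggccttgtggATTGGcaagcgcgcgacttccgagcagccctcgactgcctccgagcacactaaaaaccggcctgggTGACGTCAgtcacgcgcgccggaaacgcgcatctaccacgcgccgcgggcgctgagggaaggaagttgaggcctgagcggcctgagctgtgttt
Ranbp6: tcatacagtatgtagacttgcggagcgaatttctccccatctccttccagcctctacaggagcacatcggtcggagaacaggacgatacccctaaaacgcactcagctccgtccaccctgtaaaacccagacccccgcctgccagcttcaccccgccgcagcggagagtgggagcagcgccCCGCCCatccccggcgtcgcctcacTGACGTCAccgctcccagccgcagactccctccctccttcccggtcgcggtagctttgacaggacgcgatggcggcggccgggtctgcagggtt
Ipo9: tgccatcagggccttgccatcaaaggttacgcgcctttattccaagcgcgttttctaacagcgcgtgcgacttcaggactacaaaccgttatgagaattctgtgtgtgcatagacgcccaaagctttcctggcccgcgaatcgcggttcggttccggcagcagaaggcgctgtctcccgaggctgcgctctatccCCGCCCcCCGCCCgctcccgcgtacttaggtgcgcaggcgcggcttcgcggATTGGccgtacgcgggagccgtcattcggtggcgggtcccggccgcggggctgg

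Nup214 and Ranbp6 both held TGACGTCA, a palindrome that reads the same on both strands, with its first base 44 bases before the start. Of the 49 members with a promoter entry 45 were tested, and the shares of members are of these 45. Nup133 was the other member with TGACGTCA, which gave 3 genes or 6.67%. The motif was found in 3.34% of the 10020 tested genes with an entry and 2.03% of all 27025 genes with one. The NRF1 motif was found in 7 members (15.6%) and in 5.49% of tested genes. These 7 were Ran, Ranbp1, Rcc1, Nup107, Nup62, Nup50 and Xpo5, none of which passed the test described next. GGGCGG was found in 75.6% of tested members and 64.2% of tested genes, and CACGTG in 20% and 11.5%. CCAAT was found in 44.4% and 42.3%, CCGGAAG in 20% and 18.7%, and TATAAA in 11.1% and 10.1%. No member held TGATGCAA, which 0.788% of tested genes did. The NRF1 motif can overlap its own match on the other strand, and a gene with several matches was counted once. A match describes letters only.

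Genes of the pore and of transport were called between LKO and Floxed livers at a share near that of all genes, and most differences were small. The median absolute log2 fold change was 0.073 among members and 0.088 among all genes. Nup214 rose in LKO livers, and Ipo9, Ranbp6, Nup160, Pom121 and Rangap1 fell. These 6 of 56 genes (10.7%) had a limma p below 0.05, against 8.35% of all genes tested. In the upward direction 1 member (1.79%) was called where 4.92% of all genes were, and in the downward direction 5 members (8.93%) where 3.43% were. None of the 56 passed after Benjamini-Hochberg adjustment in limma, where the lowest adjusted p was 0.416 and where no gene of the 16915 passed either, and the methods' t-test called 8 members before adjustment, where it called 7.31% of all genes, and 0 after. No member separated the 6 LKO from the 6 Floxed mice without overlap, as 0.296% of all genes did. The fitted log2 fold change was negative for 37 members (66.1%) and for 51.2% of all genes, with a median of -0.029 among members and -0.0035 among all genes, and 34 members differed by less than 0.1. The members varied less between mice of a genotype than genes at large, with a median SD of 0.165 against 0.221, and 44 of 56 lay below the latter. Just outside the threshold lay Ipo7 (-0.18, limma p = 0.0535, exact permutation p = 0.0390), and Rangap1 (-0.18, limma p = 0.0425, exact permutation p = 0.0238) was the last inside it.

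**Figure D1:**
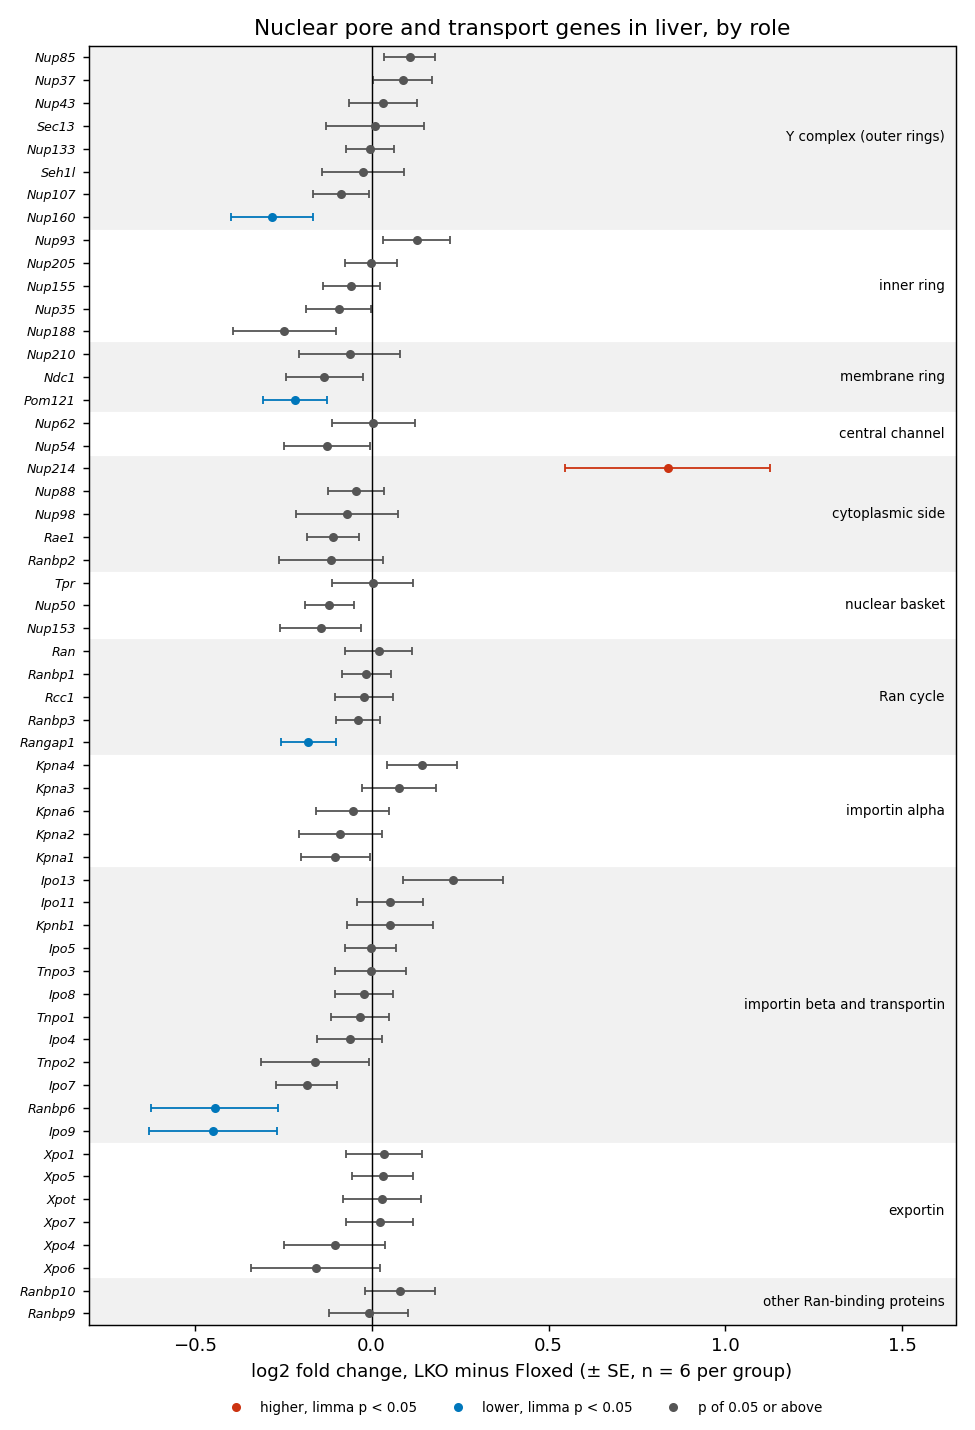
The 56 tested genes are grouped by role, with the log2 fold change of 6 LKO over 6 Floxed mice on the horizontal axis (points) and its SE (bars); Rangap1 has 5 Floxed values. Red and blue mark the genes with a limma p below 0.05. Nup214 stands alone on the right at 0.84, and the 5 blue genes lie between -0.45 and -0.18.

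On the cytoplasmic side of the pore, Nup214, an FG nucleoporin of the filaments that anchors mRNA export factors, had the largest difference of all members. Its level ran from 4.38 over a median of 4.84 to 5.50 in Floxed mice and from 4.84 over a median of 5.83 to 6.40 in LKO mice. LKO 3 to 6 read 6.40, 5.86, 6.38 and 5.80, each above the highest Floxed mouse, while the arrays labelled LKO 1 and 2 read 4.93 and 4.84, in the middle of the Floxed range. The groups therefore overlapped. The log2 fold change was 0.84 ± 0.29 (SE, n = 6), a 1.79-fold rise, with a limma p of 0.0130, an adjusted p of 0.416 and a two-sided exact permutation p of 0.0325. Within slide 2 the difference had the opposite sign (-0.36), and with slide as a fixed block limma gave the same value and no call. LKO mice of slide 3 exceeded the arrays labelled LKO on slide 2 by 1.23, and Floxed mice of slide 2 exceeded those of slide 1 by 0.57. With the arrays labelled LKO 1 and 2 left out the log2 fold change was 1.25 ± 0.22 (adjusted p = 0.0105). Its within-group SD of 0.563 was the highest among the members, and 95.7% of all genes had a smaller one. Whether slide, genotype or Phgdh level sets this split cannot be told apart, because the 4 LKO mice with low Phgdh are the 4 mice of slide 3.

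Nup214 stood apart from the other genes of its side. Nup88, which is anchored beside Nup214, had a log2 fold change of -0.04 ± 0.08, and Ranbp2, the giant filament protein that holds SUMO-modified Rangap1 at the pore, one of -0.11 ± 0.15. Rae1, an mRNA export factor, had -0.11 ± 0.07, and its binding partner Nup98, an FG nucleoporin found on both faces, -0.07 ± 0.14. These 4 had limma p-values from 0.158 to 0.635. The mean deviation of the 5 genes from their own means ran from 0.11 to 0.15 in LKO 3 to 6 and from -0.16 to -0.04 in the arrays labelled LKO 1 and 2, a split that Nup214 carried.

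**Figure D2:**
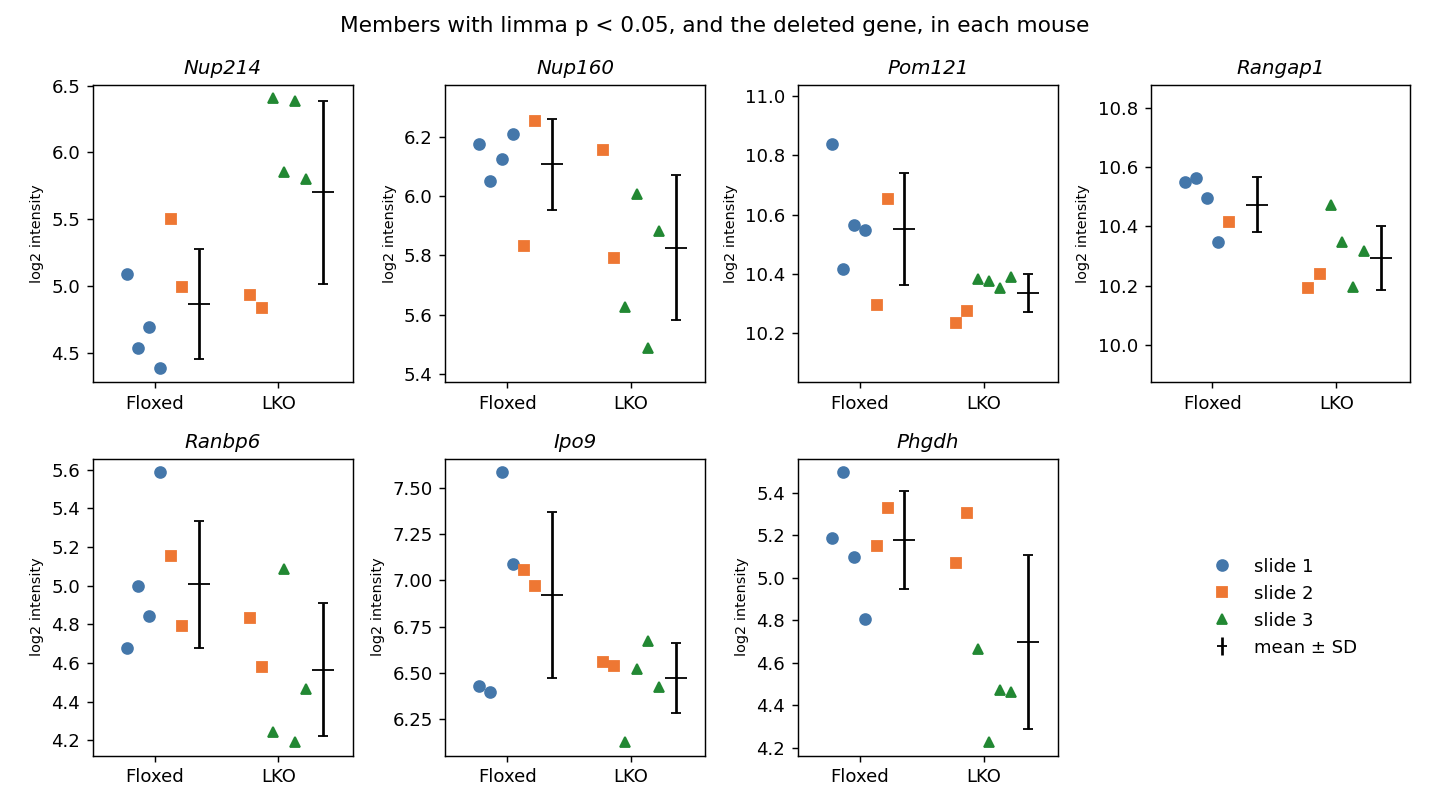
Each panel shows the log2 intensity (vertical axis, with its own range, at least 1 unit wide) of 1 gene in every Floxed and LKO mouse, with symbols for the slide and the mean ± SD in black. In Nup214 the 4 LKO mice of slide 3 lie between 5.80 and 6.40 and the 2 arrays labelled LKO on slide 2 at 4.84 and 4.93; in Phgdh the same 4 mice lie at or below 4.66.

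In the scaffold, 1 of 8 Y complex genes, none of 5 inner ring genes and 1 of 3 membrane ring genes fell. Over all genes 3.43% were called lower and 8.35% in either direction. In groups as small as these and the role groups below, so few calls or none do not set a role apart. Nup160, a Y complex subunit, ran from 5.83 over 6.15 to 6.25 in Floxed mice and from 5.49 over 5.84 to 6.15 in LKO mice. LKO 2, 3 and 5 lay below every Floxed mouse, and LKO 1 (6.15) lay level with the Floxed median. Its log2 fold change was -0.28 ± 0.12 (limma p = 0.0307, adjusted p = 0.530, exact permutation p = 0.0368), within slide 2 it was -0.07, and without the arrays labelled LKO 1 and 2 it was -0.36 (adjusted p = 0.199). The 7 other genes grouped here were Nup85, Nup37, Nup43, Nup107, Nup133, Seh1l and Sec13, which also serves in the COPII coat. They had log2 fold changes from -0.09 to 0.11, and 4 of them were positive. Nup107, which binds Nup133 in the stem, had -0.09 ± 0.08 (exact permutation p = 0.219).

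Pom121, a transmembrane nucleoporin that takes part in pore assembly, ran from 10.29 over 10.56 to 10.84 in Floxed mice and from 10.24 over 10.37 to 10.39 in LKO mice. All 6 LKO mice lay below the Floxed median, and the arrays labelled LKO 1 and 2 lay below every Floxed mouse, with Floxed 5 (10.29) the only Floxed mouse under the highest LKO value. The log2 fold change was -0.22 ± 0.09 (limma p = 0.0303, adjusted p = 0.527, exact permutation p = 0.0238). It was -0.22 within slide 2 also, and -0.18, no longer called, without the arrays labelled LKO 1 and 2 (adjusted p = 0.564). The other membrane genes had -0.13 ± 0.11 (Ndc1) and -0.06 ± 0.14 (Nup210), so that the 3 genes of this ring were on the negative side in the fit. Nup210l, a paralog of Nup210, was not well above background on any array.

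None of the inner ring genes was called. Nup188 had the largest difference there (-0.25 ± 0.15, exact permutation p = 0.126), and it was 0.17 within slide 2. Floxed 2 (6.21) was higher than the other 5 Floxed mice, which read between 5.24 and 5.62, and without it the log2 fold change was -0.12. Nup93, which holds the inner ring together, had 0.13 ± 0.09 (exact permutation p = 0.180), and Nup155, Nup205 and Nup35 lay between -0.09 and -0.0013. In the central channel Nup62, the FG nucleoporin that gives the channel complex its name, had 0.0049 ± 0.12, and its partner Nup54 -0.13 ± 0.12 (exact permutation p = 0.333). Nupl1 (Nup58), a channel gene outside the naming rule, had -0.35 ± 0.12 and is described with the other pathway genes. In the nuclear basket the values were -0.14 ± 0.11 for Nup153, which anchors the basket, -0.12 ± 0.07 for Nup50, which helps to free importins from cargo, and 0.0025 ± 0.11 for Tpr, the coiled-coil protein that forms the basket's struts, with p from 0.110 to 0.983.

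In the Ran cycle, Rangap1 fell and Ran, Ranbp1, Ranbp3 and Rcc1 differed by less than 0.05. Rangap1 ran from 10.35 over 10.50 to 10.56 in 5 Floxed mice and from 10.19 over 10.28 to 10.47 in LKO mice. Of the LKO mice, 5 lay at or below 10.35, under every Floxed value, and LKO 3 (10.47) lay among the Floxed mice. The log2 fold change was -0.18 ± 0.08 (limma p = 0.0425, adjusted p = 0.578, exact permutation p = 0.0238). The scanner software marked the spot of Floxed 6 as an outlier, and it was left out. With that spot kept, Floxed 6 read 9.06, lower than any other mouse, and the difference became 0.058 and was not called. Within slide 2 the value was -0.20, where Floxed 5 stood alone for its genotype, and without the arrays labelled LKO 1 and 2 it was -0.14 and not called (adjusted p = 0.620). Ran, the GTPase itself, had 0.02 ± 0.09, Ranbp1, which assists Rangap1, -0.02 ± 0.07, and Rcc1, the exchange factor, -0.02 ± 0.08. A second Ran probe gave 0.03 ± 0.10. Ran has near-identical copies in the mouse genome, and which of them the probes read was not analysed here.

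Ranbp6 and Ipo9 fell among the 12 importins of the beta family and transportins, and no gene of this group rose. Ranbp6, a protein related to importin-5, ran from 4.68 over 4.92 to 5.59 in Floxed mice and from 4.19 over 4.52 to 5.09 in LKO mice. LKO 2, 3, 5 and 6 lay below every Floxed mouse, and LKO 4 lay above all Floxed mice but Floxed 4 and 5. Its log2 fold change was -0.44 ± 0.18 (limma p = 0.0283, adjusted p = 0.522, exact permutation p = 0.0476), with -0.27 within slide 2 and -0.51 without the arrays labelled LKO 1 and 2 (adjusted p = 0.310). Ipo9, importin-9, which carries histones and ribosomal proteins, ran from 6.40 over 7.01 to 7.58 in Floxed mice and from 6.13 over 6.53 to 6.67 in LKO mice. Floxed 1 and 2 (6.43 and 6.40) lay inside the LKO range, and the other 4 Floxed mice lay above every LKO mouse. The difference was -0.45 ± 0.18 (limma p = 0.0286, adjusted p = 0.524, exact permutation p = 0.0433), it was -0.47 within slide 2, and it was -0.49 without the arrays labelled LKO 1 and 2 (adjusted p = 0.384).

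The other importins of the beta family lay between -0.18 and 0.23. Kpnb1, importin-beta 1, which carries classical nuclear localization signals with an importin alpha, had 0.05 ± 0.12 (exact permutation p = 0.669), and Tnpo1, transportin-1, the receptor of PY signals, -0.03 ± 0.08 (exact permutation p = 0.649). Ipo13, which serves import and export, had 0.23 ± 0.14 over all mice (exact permutation p = 0.156), -0.18 within slide 2 and 0.40, then called, without the arrays labelled LKO 1 and 2 (adjusted p = 0.146). Its sign within slide 2 was opposite to that over all mice, as for Nup214, and it is named here after its values were seen.

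None of the 5 importin alpha genes tested was called. Kpna4 had the largest difference (0.14 ± 0.10, exact permutation p = 0.167) and all 6 LKO mice lay above its Floxed median. Kpna2, an importin alpha abundant in dividing cells, had -0.09 ± 0.12 on its brightest probe, and its other 3 probes gave -0.10, -0.13 and -0.14. Among the exportins none was called either. Xpo1 (CRM1), the exporter of leucine-rich signals, had 0.04 ± 0.11, Xpo5, the exporter of microRNA precursors, 0.03 ± 0.09, and Xpot, the exporter of tRNA, 0.03 ± 0.11, with p from 0.721 to 0.790. Xpo6, the exporter of actin, was the farthest from 0 at -0.16 ± 0.18 (exact permutation p = 0.439). Ranbp10, a scaffold protein, had 0.08 ± 0.10, and its relative Ranbp9 -0.01 ± 0.11.

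**Figure D3:**
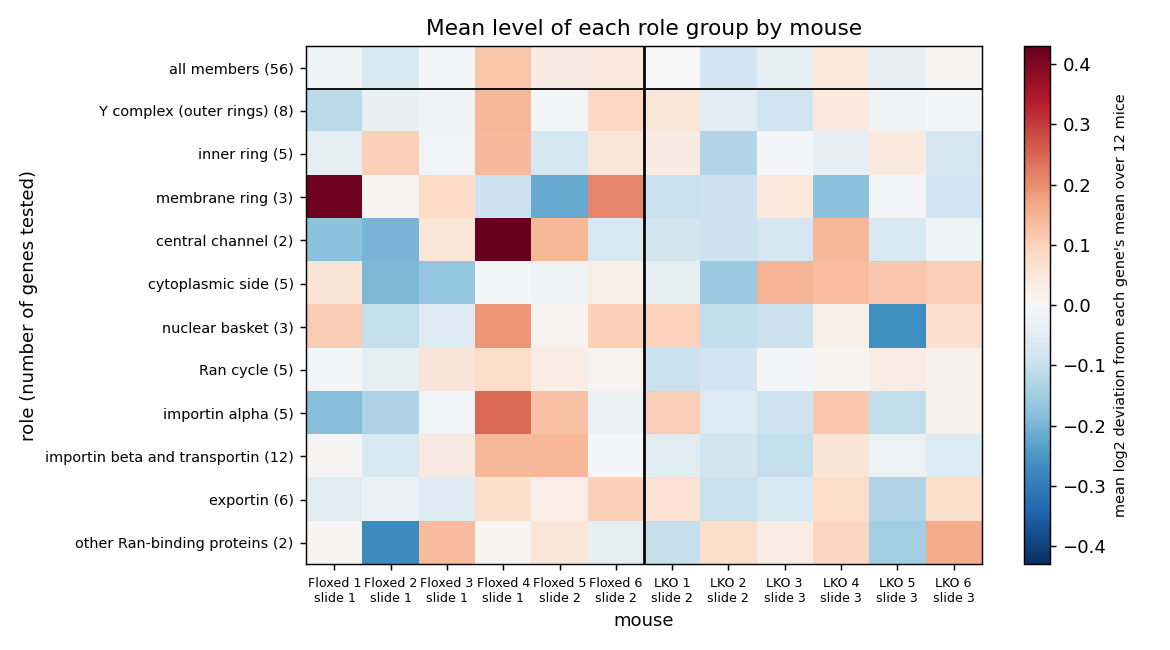
Rows are all 56 tested members and the 11 role groups (number of genes in parentheses), columns are the 12 mice with their slide, and color gives the mean log2 deviation of the genes from their own mean over all mice. The row of all members stays between -0.08 and 0.12, and the cytoplasmic side lies between 0.11 and 0.15 in LKO 3 to 6.

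Averaged over the 56 members, the deviation from each gene's mean ran from -0.07 over 0.02 to 0.12 in Floxed mice and from -0.08 over -0.02 to 0.05 in LKO mice. Floxed 4 was the highest mouse and LKO 2 the lowest, and the groups overlapped over most of their range. The difference of the means was -0.04 where the SD among mice of a genotype was 0.06 in Floxed and 0.05 in LKO mice, and it was -0.08 within slide 2.

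Seen by slide, the sign of the difference held for 42 of 56 members within slide 2, and for 5 of the 6 called members, all except Nup214. The members' median difference was -0.07 within slide 2, where 69.6% were negative against 45.4% of all genes, and -0.03 between LKO mice of slide 3 and Floxed mice of slide 1, where 57.1% were negative against 53.7%. Between the arrays labelled LKO on slide 3 and those on slide 2, the median was 0.0021. With slide as a fixed block none of the members was called (the 6 had limma p-values from 0.190 to 0.733), while 1.87% of all genes were. Slide 2 held 2 mice of each genotype, which limits what that fit can show. With the arrays labelled LKO 1 and 2 left out, 5 members (8.93%) were called against 12.8% of all genes: Nup214 and Ipo13 higher, Nup160, Ranbp6 and Ipo9 lower, of which 4 were called with all mice also. Of these, Nup214 passed after adjustment. The share of all genes that passed after adjustment in this fit is not given here. Its adjusted p-values, for Nup214 and for Thoc2 and Apod below, therefore do not set these genes apart from genes at large.

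**Figure D4:**
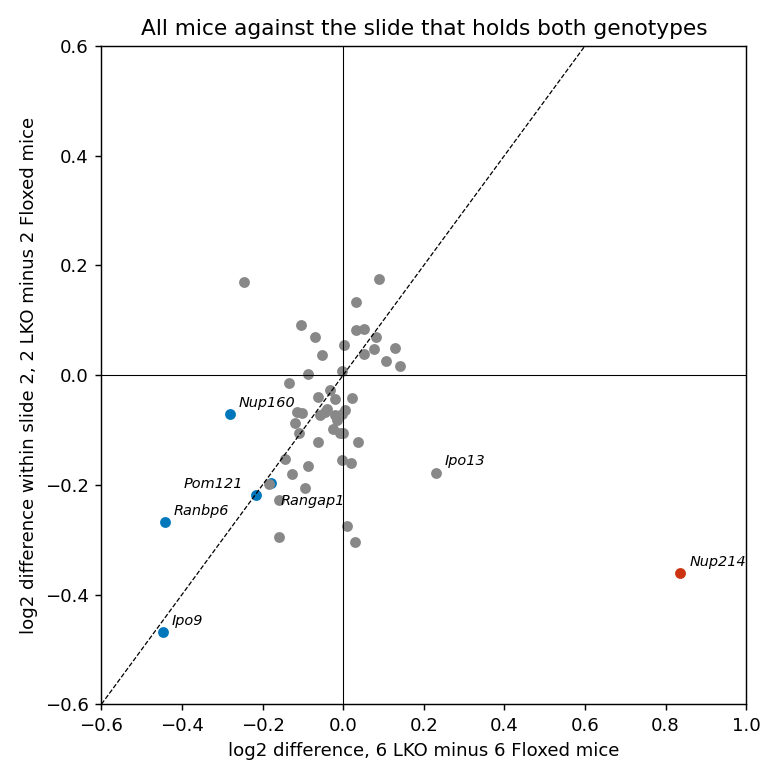
The log2 difference over all 12 mice (horizontal axis) is set against the difference within slide 2, 2 LKO minus 2 Floxed mice (vertical axis), for the 56 tested members; red and blue mark members higher and lower with a limma p below 0.05, and the dashed line marks equal values. Ipo9 (-0.45 and -0.47) and Pom121 (-0.22 and -0.22) lie on the line, and Nup214 (0.84 and -0.36) lies far from it.

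Leaving out single mice moved the calls of the members lower in LKO, while Nup214 stayed called in all 12 such fits (limma p from 0.00281 to 0.0320). Ipo9 was no longer called without Floxed 3, Floxed 4, Floxed 5 or LKO 3 (p from 0.0543 to 0.0657), and its log2 fold change was -0.32 without Floxed 3. Ranbp6 was lost without Floxed 4, Floxed 5, LKO 3, LKO 5 or LKO 6 (p from 0.0514 to 0.0655). Pom121 was lost without Floxed 1, Floxed 6, LKO 1 or LKO 2 (p from 0.0570 to 0.0661). Nup160 was lost without Floxed 1, Floxed 4, Floxed 6, LKO 2, LKO 3 or LKO 5 (p from 0.0513 to 0.0706). Rangap1 was lost in 8 of the 12 fits, without Floxed 1, 2 or 3 or LKO 1, 2, 4, 5 or 6 (p up to 0.0868). Calls were gained by Kpna4 without Floxed 4 (0.21), by Nup153 without Floxed 2 (-0.23), by Ipo7 without Floxed 6 or LKO 5, and by Ipo13 without LKO 1. The number of members called ran from 3, without Floxed 1, LKO 2 or LKO 3, to 6.

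Several members had more than 1 probe. Of 11 members with several probes well above background on all arrays, 8 had probes of a single sign. In 3 genes a dimmer probe was called where the brightest one was not. They were Seh1l (-0.24 ± 0.09, adjusted p = 0.448, against -0.02 for the brightest), Kpna3 (-0.28 ± 0.11, adjusted p = 0.507, against 0.08) and Kpna6 (0.34 ± 0.14, adjusted p = 0.521, against -0.05), each with an unadjusted limma p below 0.05. For Seh1l the probes carry accessions of different transcripts. The 6 called members were each read by 1 probe above background on all arrays. Of the 5 members not tested, Ranbp17, Nup210l and Kpna7 were not well above background on any array, and Nup62cl and Ranbp3l on 2 and 3 of 12.

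Other genes of the pathway, listed from general knowledge, were read from the same fit. Of 36 tested genes of the pore, mRNA export and the SUMO and Ran side pathways, none rose and 2 (5.56%) fell. Over all genes 4.92% were called higher and 3.43% lower. Thoc2, the scaffold of the THO complex that packages mRNA for export, ran from 6.07 over 6.47 to 6.70 in Floxed mice, and from 5.74 over 5.84 to 6.82 in LKO mice. LKO 1 was the highest of all mice, and the other 5 LKO mice lay below every Floxed mouse. Its log2 fold change was -0.46 ± 0.18 (limma p = 0.0254, adjusted p = 0.501, exact permutation p = 0.0455). It was 0.10 within slide 2, and without the arrays labelled LKO 1 and 2 it was -0.61 and passed after adjustment (adjusted p = 0.0306). Ddx19a, an RNA helicase related to the Nup214-bound Ddx19b, had -0.33 ± 0.15 (limma p = 0.0498, adjusted p = 0.598), with an exact permutation p of 0.0779. It was -0.74 within slide 2 and was called with slide as a block, it was -0.22 and not called without the arrays labelled LKO 1 and 2 (adjusted p = 0.692), and LKO 5 stood above the other LKO mice. Cse1l, which returns importin alpha to the cytoplasm, had 0.05 ± 0.16, and Nxf1, the main mRNA export receptor, -0.08 ± 0.10. Nupl1, an older symbol for the channel nucleoporin Nup58 that the naming rule misses, fell by 0.35 on the log2 scale (SE 0.12, limma p = 0.0155, adjusted p = 0.426, exact permutation p = 0.0281), by 0.14 within slide 2, and by 0.36 without the arrays labelled LKO 1 and 2 (adjusted p = 0.263). It is not counted among the 36 genes.

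Among 24 tested cytoplasmic anchors and inhibitors of nuclear import or export, 1 rose (4.17%, against 4.92% of all genes) and none fell. This was Apod, apolipoprotein D, a lipid carrier listed here because it is annotated as a negative regulator of protein import into the nucleus. It ran from 4.17 over 4.60 to 4.78 in Floxed mice and from 4.89 over 5.02 to 5.31 in LKO mice. The groups did not overlap, as was the case for 0.296% of all genes. The log2 fold change was 0.50 ± 0.11 (limma p = 0.000702, adjusted p = 0.257), with an exact permutation p of 0.00216, the smallest that 6 against 6 mice allow. It was 0.32 within slide 2, was not called with slide as a block, and was 0.57 without the arrays labelled LKO 1 and 2 (adjusted p = 0.0357). Nfkbia, the cytoplasmic anchor of NF-kappaB, had -0.15 ± 0.12 (exact permutation p = 0.249). None of 16 genes of the nuclear lamina and envelope was called by limma at the unadjusted threshold, and the methods' t-test called 1. Lmna, the A-type lamin, had 0.07 ± 0.13, and Lmnb1, a B-type lamin, 0.26 ± 0.16 (exact permutation p = 0.169).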

How the data were processed

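Total RNA from the livers of 12 mice was labeled with cyanine 3 and hybridized to single-color Agilent mouse arrays. The labels name TRIzol and a Promega column for the RNA and the paper's methods another kit. Per the file headers, the authors deposited the intensity of each spot from Agilent Feature Extraction (version 10.7.1.1 in the headers, 9.5.1.1 in the submitters' processing notes), corrected for background and not normalized between arrays. Other deposited columns are flags for outlier spots, saturation and signal well above background. The authors' deposited table of quantile-normalized intensity served as an alternative, and 99.9% of its log2 values lay within 0.1 of those used here.

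Control spots (1377 per array) were left out, and log2 intensity was quantile-normalized. Outlier spots (0.298%) were set to missing. A probe was retained (20404 in all) when its signal was well above background on each of the 12 arrays, this flag taking the place of the methods' detection p-value. Where a probe had several spots, 0.5 of them had to pass. Genes were named by RefSeq accession through a table of assembly GRCm38.p6 (94.3% of 28389 accessioned probes matched), which is not the build of the array design, so its coordinates are given for 3 promoter windows alone. The brightest probe stood for a gene. Of 16916 genes, 1 had no value in one genotype and was dropped. LKO and Floxed mice were compared with limma 3.58.1 (R 4.3.3), lmFit and eBayes, without covariates, at an unadjusted p below 0.05 as in the study's array methods. Adjusted p-values are Benjamini-Hochberg values over all 16915 genes. The exact permutation test is two-sided over 924 arrangements of 6 against 6 mice (fewer for Rangap1, with 5 Floxed values). The fit and the permutation test were tested on simulated data. There 200 of 16913 genes were changed by 1.5 on the log2 scale, and 100% of them were recovered. That change is larger than the difference of any called member, so the recovery does not show how well differences of their size are found.

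The genes named are the called members, the member with the largest difference in each role, a set of core members, the called genes of the other pathway lists, and Phgdh. The members and all lists were chosen with earlier results of these data known. Alternatives covered normalization, background, the authors' table, dim probes, outliers, the probe rule, slide, replicate number, threshold, the methods' t-test and each array left out. The fit without the arrays labelled LKO 1 and 2 and the difference within slide 2 were added after seeing the data. Apart from animal numbers, nothing in the labels says more of the mice of a group than that they are littermates. The p-values therefore measure the spread between these mice, and the number of mice limits the precision. The main fit has no slide term, so differences between slides are mixed into both the group difference and this spread.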

Additional observations from a re-analysis of the deposited data

Results flagged for a closer look

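Of 66 groups of 5 or 6 mice, one for each named gene and genotype, 7 held a mouse whose distance to the nearest other mouse was large for the range of its group, where chance alone gives about 3.3. On the log2 intensity scale, Rcc1 was 9.16 in Floxed 3 against 8.86 to 8.93 in the other Floxed mice. Nup107 read 9.81 in Floxed 4, and 9.53 to 9.62 in the others. Xpo1 was low in Floxed 3 at 7.86, with 8.14 to 8.29 in the others, and Xpo6 was low in Floxed 1 at 4.26, with 4.89 to 5.16 in the others. In LKO mice, Nup98 was 5.84 in LKO 2 and 5.22 to 5.45 in the rest. Thoc2 was 6.82 in LKO 1 and 5.74 to 5.90 in the rest. Ddx19a was 8.22 in LKO 5 and 7.34 to 7.63 in the rest.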

How the results depend on the processing

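The counts and the fold changes depended on slide and on the threshold, and the cause was not tested. Some fold changes depended on the background correction also. With normexp on the raw spot intensity the log2 fold change was 0.34 for Nup214, 0.15 for Apod and -0.19 for Phgdh. These 3 genes were still called. Of the 6 called members, Ranbp6 alone lost its call with normexp, and its log2 fold change ran from -0.55 to -0.12 over the tested alternatives. The number of nuclear pore and transport genes called (6) became 3 with 75th percentile scaling and 0 with slide as a fixed block, with an adjusted p below 0.05, with a further floor of 1 on the size of the log2 fold change, and with the adjusted t-test of the methods. Leaving out 1 mouse gave 3 to 6. With the replicate number as a block it was 3 (Ipo9, Pom121 and Rangap1 were no longer called), and 720 genes were called higher and 708 lower in all. Mice with the same number did not deviate together in each pair (correlations from -0.24 to 0.32, above 0.1 in 3 of 6). The mice of each pair lay on different slides, so these correlations cannot exclude a pairing. The sample titles carry animal numbers that are adjacent in every same-numbered pair, but no label calls such a pair a litter. The main fit did not take the numbers as pairs, and whether they mark litters was not tested. Over all genes (1413 called), the count was 2791 without a filter on dim probes, 317 with the slide block, 2173 without the arrays labelled LKO 1 and 2, 88 with the fold threshold, 0 after adjustment in limma and 1 after adjustment of the t-test, and it ran from 1103 without Floxed 3 to 1838 without LKO 1. With 75th percentile scaling 1127 genes were higher and 316 lower, against 832 and 581, and the median of all genes was 0.013.

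Of the other pore and transport genes (2 called), 1 was called with 75th percentile scaling, with a background flag on at least 6 arrays, with the mean of probes, with the slide block and without the arrays labelled LKO 1 and 2. With normexp and under the stricter thresholds 0 were, and 0 to 3 with 1 mouse left out (0 without Floxed 4, LKO 2 or LKO 3). Thoc2 lost its call in 5 and Ddx19a in 9 of those 12 fits, with a p of up to 0.0555 and 0.109. Anchors and inhibitors (1 called) gave 2 without a filter and with the mean of probes, 0 with the slide block and the stricter thresholds, and 1 to 2 with 1 mouse left out. Lamina and envelope genes (0 called) gave 1 without a filter, with slide as a random block and with the methods' t-test, and 0 to 1 with 1 mouse left out. Phgdh was -0.34 and not called with 75th percentile scaling, -0.055 and not called with the slide block, -0.055 within slide 2, and -0.60 to -0.38 with 1 mouse left out.

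Among the called genes, values that changed sign were Nup214 (-0.36 with the slide block and within slide 2), Thoc2 (0.10 in both) and Rangap1 (0.058 in the authors' table and with outlier spots kept, since Floxed 6 then enters). Of the 144 tested values of the 6 called members under the alternatives, 100 kept the direction and the call, 41 kept the direction alone and 3 changed sign. Within slide 2, whose arrays are also part of the main fit, 5 of 6 kept the direction, without a test. Of the 22 other named members, 14 changed sign under some alternative, as Nup188 did with the slide block (0.17). The members' median log2 fold change stayed between -0.07 and -0.02.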
